A study of Mus musculus with 13 samples.

Results

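MHC class II molecules were followed at the level of their messenger RNA in the S1 segment of the mouse kidney, the first stretch of the proximal tubule. The 7 genes listed were H2-Ab1, H2-Aa, H2-Eb1, H2-DMa, H2-DMb1, Cd74 and Ciita, and a gene was taken where a probe set carried its symbol alone. This gave 6 of the 22180 genes measured, with 1 probe set each. The Cd74 probe set also carries the symbol of a microRNA, Mir5107, and was not used. Tissue came from male C57BL/6J mice in 3 groups. The LPS/LPS group (5 arrays) was given 0.25 mg/kg of lipopolysaccharide (LPS), a bacterial endotoxin, and 24 h later 5 mg/kg. It was studied 24 h after the 5 mg/kg dose. The LPS group (4 arrays) was given a single intraperitoneal dose of 5 mg/kg and studied at 24 h. The control group (4 arrays) was given saline. The sample labels also state the doses as 5 and 100 ug. They do not say whether arrays came from separate animals, so a p-value here reflects the variation among these 13 samples, part of which may be technical.

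Class II molecules display peptides from endocytosed proteins to CD4+ T cells. An alpha and a beta chain form each molecule: H2-Aa and H2-Ab1 encode the chains of I-A, and H2-Eb1 encodes the beta chain of I-E. The I-E alpha gene is defective in C57BL/6 mice, which therefore carry I-A as their classical class II molecule. The invariant chain, from Cd74, guides new class II molecules to endosomes, where H2-DM, a dimer of the H2-DMa and H2-DMb1 products, helps load peptide. Ciita encodes the transactivator that switches the class II genes on, constitutively in dendritic cells, macrophages and B cells and under interferon gamma in many other cells, tubular epithelium among them.

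Class II promoters share an X box, bound by the RFX complex, and a Y box, bound by NF-Y, on which the Ciita product assembles. The following stretches show this shared layout in 3 members, none of which passed the test in any comparison. Of the 6 members, 4 matched RefSeq promoter windows of GRCm38.p6, each from 250 bases before to 50 after an annotated start. Capitals mark GNAACT, letters of the X box, and ATTGG, the inverted CCAAT of the Y box. Each stretch is read 5′ to 3′ on the gene's strand. The coordinates are chr17:34287855-34287916 on the minus strand for H2-Aa, chr17:34305764-34305824 on the plus strand for H2-Eb1, and chr17:34153085-34153146 on the plus strand for H2-DMb1.
H2-Aa: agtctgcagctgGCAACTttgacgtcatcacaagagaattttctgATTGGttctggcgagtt
H2-Eb1: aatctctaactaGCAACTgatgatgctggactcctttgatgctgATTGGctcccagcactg
H2-DMb1: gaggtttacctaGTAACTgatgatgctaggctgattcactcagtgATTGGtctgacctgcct

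The first motif begins 81 bases before the start in H2-Aa, 91 in H2-Eb1 and 94 in H2-DMb1, with 26 or 27 bases between the motifs. Searched on both strands, GNAACT occurred in 42.8% and ATTGG in 37.4% of all 32851 promoter windows. The pair in that order on 1 strand, 15 to 35 bases apart, occurred in 0.916%. The motif letters and their spacing were chosen after these sequences were read. Neither H2-DMa window held the spaced pair. In the same annotation H2-Ab1, H2-Aa and H2-Eb1 lie next to each other on chromosome 17, as do H2-DMa, H2-DMb2 and H2-DMb1, while Ciita lies on chromosome 16.

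Values are log2 expression levels after robust multi-array averaging (RMA), so a difference of 1 is a doubling. The files hold no detection calls. As a guide to background, 1105 olfactory receptor genes, taken as mostly silent here, were used: 95% of them had a mean at or below 4.77, and 2207 genes had a mean above it. Over all 13 arrays the mean lay above this level for H2-Eb1 (4.99), H2-Ab1 (4.94) and Ciita (4.89), and below it for H2-Aa (4.64), H2-DMa (4.23) and H2-DMb1 (3.38). Levels of different genes rest on different probes and are not ranked against each other. Array medians ran from 3.56 to 3.68. Arrays also differed in the spread of their values, and were split at the median standard deviation (SD) of 1.35 into 7 wide and 6 narrow arrays. The wide ones were LPS/LPS replicates 1 and 5, LPS replicates 2, 3 and 4, and control replicates 1 and 4. Of the 8 S1 markers 4 had means above background, led by Slc34a1, the brush border phosphate transporter, with levels of 8.31 to 10.06 in LPS/LPS, 9.48 to 10.91 in LPS and 11.00 to 11.54 in control. Slc5a2, the S1 glucose transporter, lay below background in all 3 groups.

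**Figure D1:**
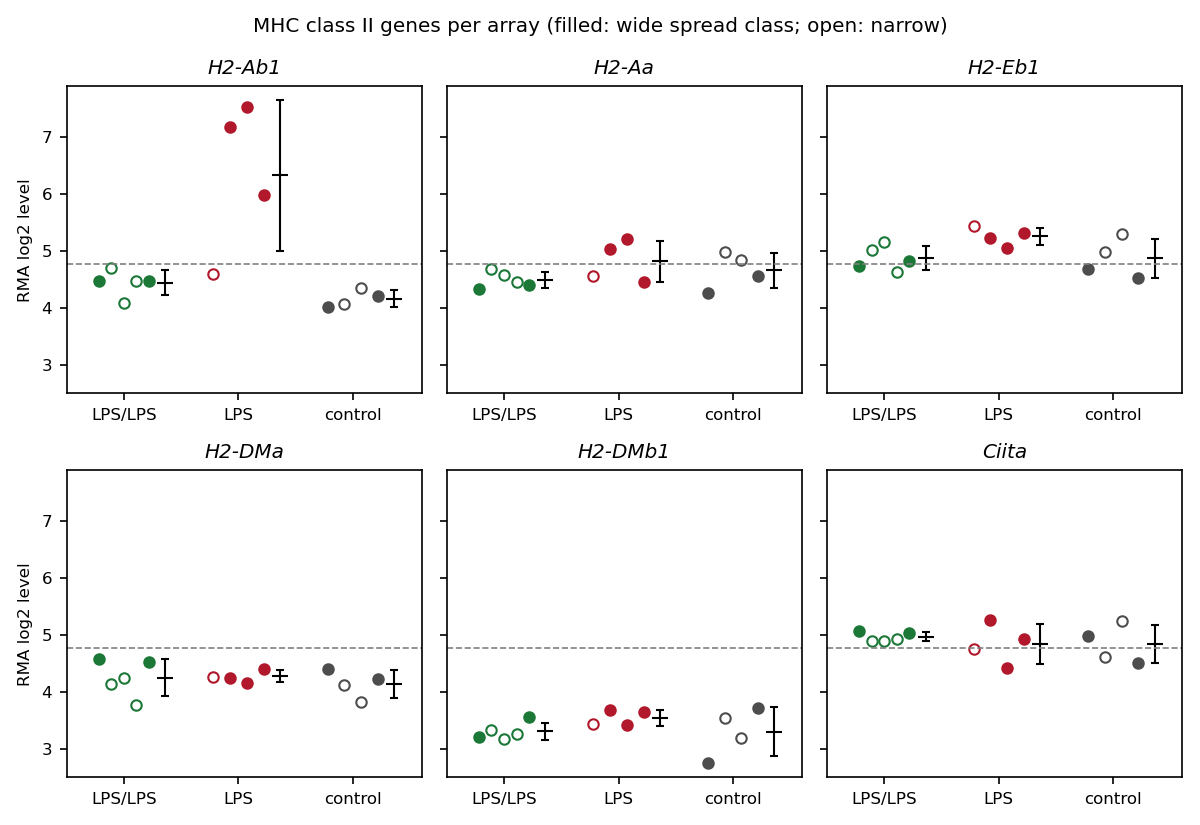
RMA log2 level of each class II gene (vertical axis) in each array, by group. Points are arrays in replicate order, filled for the wide and open for the narrow spread class; black bars are the group mean and SD, and the dashed line is the background level of 4.77. H2-Ab1 stands at 5.99 to 7.52 in 3 LPS arrays and at 4.70 or lower in the other 10 arrays.

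How a single large endotoxin dose alters the S1 segment was addressed by setting LPS against control. H2-Ab1, the beta chain gene of I-A, had levels of 4.60, 7.18, 7.52 and 5.99 in LPS arrays, against 4.02, 4.08, 4.35 and 4.21 in control arrays. LPS replicates 2, 3 and 4 were far above every control array, and LPS replicate 1 was only just above the highest of them, so the groups did not overlap. The means were 6.32 ± 1.32 (SD, n = 4) in LPS and 4.17 ± 0.14 (SD, n = 4) in control, a log2 difference of 2.16 (SE 0.45, 95% confidence interval 1.18 to 3.13) or 4.46-fold. Among 22180 genes it had rank 10 from the top by size and rank 35 by p. It did not pass over all genes (limma adjusted p = 0.183, unadjusted p = 0.000303).

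That call depended on LPS replicate 1, the lowest LPS array, whose removal raises the difference in any case. Dixon's outlier test did not flag this array for H2-Ab1 (gap over range 0.474, critical value 0.829). With 4 arrays the test flags only a gap above 0.829 of the range, so it cannot decide whether this array is an outlier. Without LPS replicate 1 the difference was 2.73 and passed (limma adjusted p = 0.00271). With arrays weighted by quality the difference was 2.43 and passed (limma adjusted p = 0.0327). Under all 23 alternatives the adjusted p ranged from 0.00271 to 0.905. LPS replicate 1 was also the only narrow array of its group. Within the wide arrays the difference was 2.78, and within the narrow arrays, with that single LPS array, it was 0.39. With the spread class as a block the difference was 2.01 (limma adjusted p = 0.198). The S1 marker list had means of 4.62, 5.28, 6.53 and 5.81 in LPS replicates 1 to 4 and of 5.27 to 6.10 in control, so it too was lowest in LPS replicate 1; its part in the H2-Ab1 level was not tested. Levels of H2-Ab1 lay above background in 3 of 4 LPS arrays and in 0 of 4 control arrays, so the fold is taken against a control level below background.

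H2-Aa, which encodes the alpha chain that pairs with the H2-Ab1 product, had levels of 4.57, 5.04, 5.21 and 4.45 in LPS arrays, against 4.27, 4.98, 4.84 and 4.57 in control arrays. The groups overlapped in part: LPS replicates 2 and 3, the arrays with the highest H2-Ab1 levels, lay above every control array, and control replicate 1 lay below every LPS array. The difference was 0.15 (95% confidence interval -0.26 to 0.57, limma adjusted p = 0.906), an interval whose upper end is a 1.48-fold rise. The array-by-array log2 difference of H2-Ab1 minus H2-Aa was 0.03, 2.14, 2.31 and 1.53 in LPS and -0.25, -0.89, -0.49 and -0.36 in control. These do not overlap, and their means differed by 2.00. In an exact two-sided permutation test, added after the data were seen, p was 0.0286, the smallest that 4 against 4 arrays allow, and 0.0635 after adjustment over the 3 comparisons, so it did not pass.

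H2-Eb1, the I-E beta chain gene, had levels of 5.43, 5.23, 5.06 and 5.31 in LPS arrays, against 4.68, 4.98, 5.30 and 4.53 in control arrays. LPS arrays lay higher as a group, but control replicate 3 fell inside their range. The difference was 0.39 (SE 0.18, 95% confidence interval 0.0056 to 0.77, limma adjusted p = 0.768, unadjusted p = 0.0471). H2-DMb1 differed by 0.25 (95% confidence interval -0.15 to 0.65) and H2-DMa by 0.13 (95% confidence interval -0.26 to 0.52). Both DM genes stayed below background in every array. H2-DMb1 and H2-DMb2 are close copies, so their probe sets may take signal from each other.

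Ciita, the transactivator gene, had levels of 4.75, 5.27, 4.42 and 4.93 in LPS arrays, against 4.99, 4.62, 5.24 and 4.51 in control arrays. The array with the highest H2-Ab1 level, LPS replicate 3, had the lowest Ciita level of the 13. LPS replicate 2, with the next highest H2-Ab1 level, had the highest Ciita level of the 13. The Ciita difference was 0.0029 (95% confidence interval -0.41 to 0.41, limma adjusted p = 0.998). The interval leaves room for a rise of up to 1.33-fold.

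Counted together, 0 of the 6 class II genes passed limma's test in LPS against control, where 0% of all genes did. At an unadjusted p under 0.05, 2 of 6 were higher (H2-Ab1 and H2-Eb1), where 3.49% of all genes were higher. Non-overlapping groups with LPS higher were found for 1 of 6, against 1.55% of all genes. All 6 differences were above 0, against 47.1% of all genes, although the difference turned negative for Ciita on quantile normalization, with the spread class as a block and within narrow arrays, for H2-Aa within narrow arrays, for H2-DMa within wide arrays, and for Ciita without single arrays. The median difference was 0.20, against -0.02 over all genes, and 0.15 over the other 5 members without H2-Ab1.

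**Figure D2:**
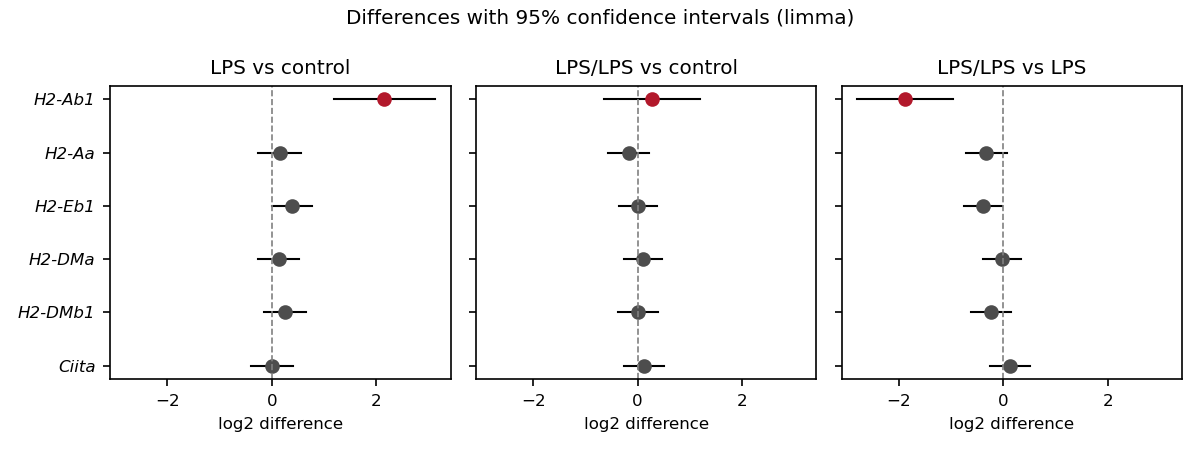
Log2 difference of each class II gene in the 3 comparisons (horizontal axis), with limma's 95% confidence interval as a line. H2-Ab1, in red, lies at 2.16 in LPS vs control, 0.28 in LPS/LPS vs control and -1.88 in LPS/LPS vs LPS, while the other 5 genes lie within 0.39 of 0.

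How primed and then challenged tubules differ from those of saline-treated mice was addressed by setting LPS/LPS against the same control arrays. H2-Ab1 had levels of 4.48, 4.70, 4.09, 4.48 and 4.48 in LPS/LPS arrays, against 4.02, 4.08, 4.35 and 4.21 in control arrays. No LPS/LPS array came near the high LPS arrays, and the lowest lay inside the control range. The means were 4.45 ± 0.22 (SD, n = 5) in LPS/LPS and 4.17 ± 0.14 (SD, n = 4) in control. The difference was 0.28 (SE 0.43, 95% confidence interval -0.64 to 1.20, limma adjusted p = 0.991), and all 9 of these arrays were below background. The interval is wide because the fit shares 1 estimate of spread with the uneven LPS group. In a fit of these 2 groups alone the difference was the same, with an SE of 0.144 and limma adjusted p = 0.939.

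H2-Aa had levels of 4.33, 4.68, 4.58, 4.45 and 4.41 in LPS/LPS arrays, all inside the control range of 4.27 to 4.98. Its difference was -0.17 (95% confidence interval -0.56 to 0.22). H2-Eb1 had levels of 4.74, 5.02, 5.16, 4.63 and 4.83 in LPS/LPS, again inside its control range of 4.53 to 5.30, with a difference of 0.0041 (95% confidence interval -0.36 to 0.36). Ciita was the most even of the members in this group, with levels of 5.07, 4.90, 4.90, 4.93 and 5.03 and a mean of 4.97 ± 0.08 (SD, n = 5), against 4.84 ± 0.34 (SD, n = 4) in control. The Ciita difference was 0.13 (95% confidence interval -0.26 to 0.52). H2-DMa differed by 0.11 (95% confidence interval -0.26 to 0.47) and H2-DMb1 by 0.010 (95% confidence interval -0.37 to 0.39). By limma 0 of 6 members passed, where 0.00902% of all genes did, and 0 of 6 had an unadjusted p under 0.05, where 4.7% did.

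What the priming dose alters in the response to the same challenge was addressed by setting LPS/LPS against LPS, whose arrays also entered the first comparison. H2-Ab1 was between 4.09 and 4.70 in the 5 LPS/LPS arrays, and 4.60, 5.99, 7.18 and 7.52 in the LPS arrays from lowest to highest. All 5 LPS/LPS arrays were below the 3 high LPS arrays, but LPS/LPS replicate 2 was above LPS replicate 1, so the groups overlapped. The difference was -1.88 (SE 0.43, 95% confidence interval -2.80 to -0.96), or 0.272 as a fold. All 5 LPS/LPS arrays lay below background, so no remaining share of the LPS level can be read from it. It did not pass over all genes (limma adjusted p = 0.166, unadjusted p = 0.000641), and had rank 28 from the bottom by size and rank 85 by p. Without LPS replicate 1 the difference was -2.45 and passed (limma adjusted p = 0.0044), and with array weights it was -2.16 and passed (limma adjusted p = 0.0461). Over all alternatives the adjusted p ranged from 0.0044 to 0.999. Within the wide arrays the difference was -2.42, and within the narrow arrays -0.18.

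H2-Eb1 had its 5 LPS/LPS levels between 4.63 and 5.16 and its 4 LPS levels between 5.06 and 5.43, with 1 LPS/LPS array inside the LPS range. The difference was -0.38 (SE 0.17, 95% confidence interval -0.74 to -0.02, limma adjusted p = 0.546, unadjusted p = 0.0396). H2-Aa differed by -0.33 (95% confidence interval -0.72 to 0.06, limma adjusted p = 0.647), with LPS/LPS levels of 4.33 to 4.68 and LPS levels of 4.45 to 5.21. H2-Ab1 minus H2-Aa averaged -0.05 ± 0.25 (SD, n = 5) in LPS/LPS and 1.51 ± 1.04 (SD, n = 4) in LPS. That contrast of -1.55 had p = 0.0476 in the exact two-sided permutation test, and 0.0635 after adjustment over the 3 comparisons. H2-DMb1 differed by -0.24 (95% confidence interval -0.62 to 0.14), H2-DMa by -0.02 (95% confidence interval -0.39 to 0.35) and Ciita by 0.13 (95% confidence interval -0.26 to 0.51).

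By limma 0 of 6 members passed in LPS/LPS against LPS, where 0.0631% of all genes did. At an unadjusted p under 0.05, 2 of 6 were lower (H2-Ab1 and H2-Eb1), where 4.49% of all genes were lower. The median difference of the 6 was -0.28, against 0.05 over all genes. In the moderated F-test over the 3 groups H2-Ab1 had the lowest p of the members (limma adjusted p = 0.184), and 0 of 6 passed, where 0.0631% of all genes did.

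No pair of members passed a permutation test of correlation from array to array. H2-Ab1 split into 3 high arrays and 10 lower ones, and a correlation with it takes in that split. The highest r was 0.623, for H2-Ab1 with H2-Aa (permutation p = 0.0216, and 0.324 after adjustment). For this pair rho was 0.376, and r was -0.184 without the 2 arrays farthest from the H2-Ab1 median. Among wide arrays r of H2-Ab1 was 0.899 with H2-Aa, 0.822 with H2-Eb1, 0.393 with H2-DMb1, -0.102 with Ciita and -0.606 with H2-DMa. Among narrow arrays it was -0.45 with H2-Aa and 0.0355 with H2-Eb1. Among the other 10 pairs of members, Pearson's r across the 13 arrays ran from -0.416 (H2-Aa with H2-DMa) to 0.427 (H2-Aa with H2-Eb1), and Spearman's rho from -0.567 to 0.489 for the same pairs. None of the 10 passed: the lowest permutation p was 0.146 for r and 0.0462 for rho, or 0.53 and 0.568 after adjustment over the 15 pairs tested. For H2-Aa with H2-DMa, r was -0.803 among wide arrays and 0.0239 among narrow ones, and for H2-Aa with H2-Eb1 it was 0.508 among wide arrays and 0.226 among narrow ones. Without the 2 arrays farthest from the H2-Aa median, r was -0.573 with H2-DMa and 0.414 with H2-Eb1.

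Among 1960 other named genes with a mean above background, the 6 whose pattern over the 13 arrays was most like that of H2-Ab1 are given by Pearson's r as the measure of likeness, with no test. This r takes in the same split of 3 high and 10 lower arrays, so it serves here only to rank genes. The filter on the mean takes in the LPS arrays too, which favours genes high in LPS. Mt1 and Glud1 had means above background only in LPS (5.85 and 5.64), with 4.59 and 4.71 in LPS/LPS and 4.64 and 4.73 in control. Mt1, a metallothionein gene, had r = 0.936, with levels of 4.06 to 4.86 in LPS/LPS, 5.31 to 6.58 in LPS and 4.36 to 4.91 in control. Mapkapk2, which encodes a kinase downstream of p38, had r = 0.936, with levels of 4.54 to 5.38 in LPS/LPS, 5.40 to 7.15 in LPS and 4.49 to 5.14 in control. Both had LPS replicate 1 as the lowest LPS array, as H2-Ab1 did, which the choice by likeness to H2-Ab1 favours. For Mt1 it was 5.31, close to the 5.33 of LPS replicate 4. The same array was the lowest in LPS for the remaining 4 genes. The remaining 4 were the ribosomal protein gene Rps12 (0.911), the acute phase orosomucoid gene Orm2 (0.875), the glutamate dehydrogenase gene Glud1 (0.855) and Pck1 (0.829), which encodes the cytosolic enzyme that commits oxaloacetate to glucose synthesis. Spearman's rho was 0.840 for Mt1, 0.833 for Mapkapk2 and 0.768 for Orm2, but 0.591 for Pck1, 0.475 for Rps12 and 0.359 for Glud1. All 3 arrays high in H2-Ab1 were wide, and H2-Ab1 lay below background in all 6 narrow arrays. Among wide arrays r was 0.853 to 0.973 for the 6 genes. Among narrow arrays it was 0.953 for Mapkapk2, 0.798 for Mt1, 0.705 for Orm2, 0.513 for Pck1, 0.176 for Rps12 and -0.86 for Glud1.

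Further class II chains and editors gave no call. H2-Ea, annotated as a transcribed pseudogene, H2-Eb2, H2-DMb2, and H2-Oa and H2-Ob, whose products restrain H2-DM, were measured, and 0 of 5 passed by limma in any comparison. None had a mean above background. The lowest p of this list belonged to H2-Oa in LPS against control (0.24, limma adjusted p = 0.883), to H2-Ob in LPS/LPS against control (-0.24, limma adjusted p = 0.987) and to H2-DMb2 in LPS/LPS against LPS (-1.05, limma adjusted p = 0.583). H2-DMb2 had levels of 3.01 to 3.83 in LPS/LPS, 3.81, 5.57, 3.47 and 5.47 in LPS, and 3.04, 4.02, 3.61 and 5.59 in control. High H2-DMb2 values thus occurred in 2 LPS arrays and in 1 control array.

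Genes of endosomal processing, which trim the invariant chain and antigens for class II loading, differed most between LPS/LPS and LPS. By limma 0 of 6 passed in each comparison, but 4 of 6 had an unadjusted p under 0.05 and lay lower in LPS/LPS than in LPS, where 4.49% of all genes did (8.61% in either direction). Their median difference was -0.93, against 0.05 over all genes. Lgmn, the asparaginyl endopeptidase gene, had levels of 4.78, 5.06, 4.52, 4.72 and 4.09 in LPS/LPS, against 5.01, 5.65, 6.49 and 6.77 in LPS, and differed by -1.35 (limma adjusted p = 0.243). Ctsl, the cathepsin L gene, was between 4.50 and 6.38 in LPS/LPS and between 6.41 and 7.61 in LPS, with no overlap, and differed by -1.53 (limma adjusted p = 0.277). Ctsd, the cathepsin D gene, was between 4.15 and 4.51 in LPS/LPS and between 4.61 and 6.46 in LPS, also without overlap (-0.94, limma adjusted p = 0.431), as were 1.3% of all genes with LPS/LPS lower. Against control, the list had a median of 0.45 in LPS, where Ctsl led with 1.23 (limma adjusted p = 0.635), and of -0.37 in LPS/LPS, where Lgmn led with -0.72 (limma adjusted p = 0.987). Ctss, the cathepsin of class II loading in dendritic cells, had group means of 3.54 in LPS/LPS, 3.40 in LPS and 3.45 in control. S1 marker genes also lay lower in LPS/LPS than in LPS, with a median of -0.65, against 0.05 over all genes. Of these 8 markers 0 passed, and 4 were lower at an unadjusted p under 0.05, where 4.49% of all genes were. Their part in the result was not tested.

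**Figure D3:**
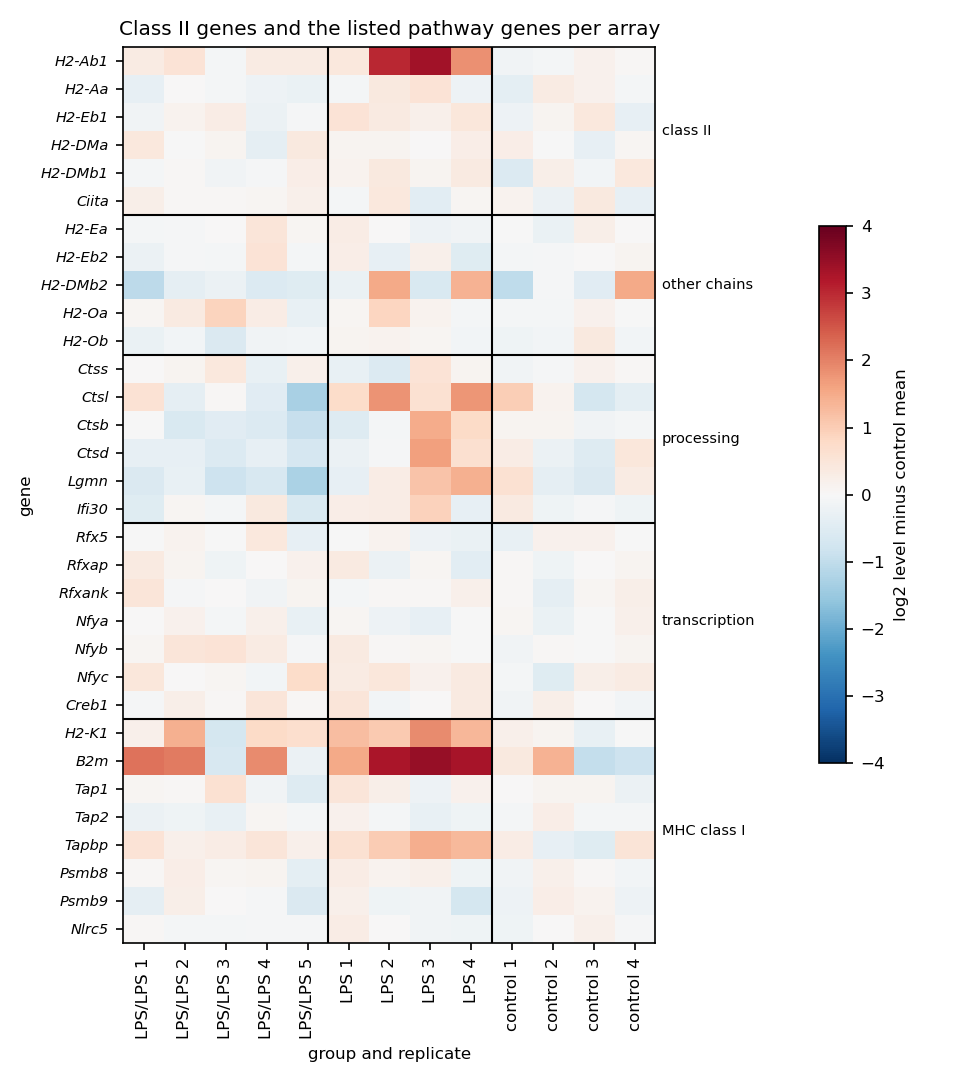
Log2 level minus the control mean (colour) for the class II genes, other class II chains, endosomal processing genes, class II transcription factors and MHC class I genes (rows) in each array (columns, by group and replicate). The strongest colours are those of B2m in LPS replicates 2, 3 and 4 and of H2-Ab1 in LPS replicates 2 and 3, and the transcription factor rows stay pale.

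The transcription factor genes of the class II promoter, Rfx5, Rfxap and Rfxank of the RFX complex, Nfya, Nfyb and Nfyc of NF-Y, and Creb1, showed 0 of 7 past limma's test and 0 of 7 at an unadjusted p under 0.05 in all 3 comparisons. Over all genes the unadjusted shares were 6.43% in LPS against control, 4.7% in LPS/LPS against control and 8.61% in LPS/LPS against LPS, so 0 of 7 is close to them. The median difference of these 7 genes was 0.06 in LPS against control, 0.10 in LPS/LPS against control and 0.11 in LPS/LPS against LPS. The lowest p in those comparisons belonged to Nfyc (0.32, limma adjusted p = 0.814), Nfyb (0.27, limma adjusted p = 0.987) and Nfyb (0.16, limma adjusted p = 0.794). Of the 7, 1 had a mean above background. In interferon gamma signalling, the route by which class II is induced outside immune cells, 0 of 7 measured genes passed in each comparison. None of these 7 had an unadjusted p under 0.05 either, again close to the shares over all genes. The lowest p belonged to the receptor gene Ifngr2 in LPS (0.21, limma adjusted p = 0.781) and in LPS/LPS (0.11, limma adjusted p = 0.987), each against control, and to the transcription factor gene Irf1 in LPS/LPS against LPS (-0.30, limma adjusted p = 0.58). Irf1 lay below background in all 13 arrays. Ifng itself had means of 3.49 in LPS/LPS, 3.52 in LPS and 3.62 in control, all below background.

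Genes of class II turnover and costimulation, such as the ubiquitin ligase genes Marchf1 and Marchf8 and the T cell costimulator genes Cd80, Cd86 and Cd40, had 0 of 6 past limma's test in each comparison, and 0 of 6 had a mean above background. At an unadjusted p under 0.05, 1 of 6 (Cd80, lower) differed in LPS/LPS against control, where 4.7% of all genes did. In LPS against control and in LPS/LPS against LPS it was 0 of 6, where 6.43% and 8.61% of all genes differed. The lowest p belonged to Cd80 in LPS (-0.35, limma adjusted p = 0.768) and in LPS/LPS (-0.41, limma adjusted p = 0.987), each against control, and to Marchf8 in LPS/LPS against LPS (-0.29, limma adjusted p = 0.726).

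MHC class I genes, whose products present cytosolic peptides, also had 0 of 8 past limma's test. In LPS against control 3 of 8 had groups that did not overlap, with LPS higher, where 1.55% of all genes did. B2m, the class I light chain gene, had levels of 8.39, 10.14, 10.36 and 10.16 in LPS, against 7.24, 8.24, 5.92 and 6.05 in control. As for H2-Ab1, LPS replicate 1 was the lowest LPS array and lay above every control array. In LPS/LPS, B2m was high in 3 arrays (9.02, 8.93 and 8.74) and low in 2 (6.21 and 6.62), whereas H2-Ab1 was at or below 4.70 in all 5. Tapbp, the class I peptide-loading chaperone gene, had the lowest p of this list in LPS against control (1.08, limma adjusted p = 0.189), in LPS/LPS against control (0.35, limma adjusted p = 0.987) and in LPS/LPS against LPS (-0.73, limma adjusted p = 0.353).

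Markers of the cells that carry class II constitutively lay mostly at background in these samples. Over 12 macrophage and monocyte markers, the list mean per array was 3.89 to 4.01 in LPS/LPS, 3.86 to 4.08 in LPS and 3.78 to 3.91 in control, and 1 of the 12, Cx3cr1, had a mean above background. Within LPS the list mean was 3.88, 3.88, 4.08 and 3.86 in replicates 1 to 4. It was highest in replicate 3, as H2-Ab1 was, while replicates 2 and 4, also high in H2-Ab1, lay close to replicate 1. The part of macrophages and monocytes in the H2-Ab1 level was not tested. Over 6 dendritic cell markers the list mean was 4.33 to 4.78 in LPS/LPS, 4.21 to 4.63 in LPS and 4.48 to 4.54 in control, with Cd209a (5.67 to 7.40 over all arrays) and Ccr7 above background. In LPS replicates 1 to 4 it was 4.21, 4.63, 4.33 and 4.62, lowest in replicate 1 as H2-Ab1 was; its part in the H2-Ab1 level was not tested. Those of 4 B cell markers were 3.76 to 4.17 in LPS/LPS, 3.61 to 4.26 in LPS and 3.93 to 4.00 in control, and those of 5 general leukocyte markers 3.72 to 4.00 in LPS/LPS, 3.79 to 4.04 in LPS and 3.76 to 4.03 in control. None of these 9 had a mean above background. By limma 0 markers of these 4 lists passed in any comparison, and in LPS against control 0 of the 27 had an unadjusted p under 0.05, where 6.43% of all genes did. The lowest p there belonged to Ly6c2 (0.43, limma adjusted p = 0.781), Itgax (-0.31, limma adjusted p = 0.768), Cd79a (-0.28, limma adjusted p = 0.881) and Laptm5 (-0.28, limma adjusted p = 0.808). In LPS/LPS against LPS, 4 of the 27 had an unadjusted p under 0.05, where 8.61% of all genes did. Cx3cr1 (0.40), Itgax (0.37) and Laptm5 (0.48) were higher in LPS/LPS and Ly6c2 (-0.52) lower, and the lowest limma adjusted p was 0.447. Itgax and Laptm5 did not overlap between these groups, as 1.1% of all genes did not with LPS/LPS higher. Laptm5 also lay lower in LPS than in control without overlap, though only just (highest LPS array 3.495, lowest control array 3.498). Itgax, Laptm5 and Ly6c2 lay below background in every array. In bulk samples a change in the number of cells of a type and a change in RNA per cell cannot be told apart.

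Endothelial markers, whose cells can carry class II, had list means of 3.82 to 4.03 in LPS/LPS, 4.05, 3.76, 4.32 and 4.21 in LPS replicates 1 to 4, and 3.67 to 3.89 in control. LPS replicate 2, with an H2-Ab1 level of 7.18, had the lowest endothelial mean of its group, while LPS replicates 3 and 4, also high in H2-Ab1, lay above LPS replicate 1. The part of endothelial cells in the H2-Ab1 level was not tested. In LPS against control all 5 endothelial differences were above 0, against 47.1% of all genes. At an unadjusted p under 0.05, 2 of 5 were higher, where 3.49% of all genes were: Pecam1 (0.75, limma adjusted p = 0.685) and Cdh5 (0.53, limma adjusted p = 0.719). Of these 5 endothelial markers 0 had a mean above background. Markers of other nephron segments stood apart in LPS replicate 3, where the list mean was 6.23 against 4.39 to 4.46 in the other 3 LPS arrays, 4.19 to 4.55 in LPS/LPS and 4.11 to 4.64 in control. Umod, of the thick ascending limb, was 8.36 there. Without LPS replicate 3 the H2-Ab1 difference was 1.76 from control and -1.48 for LPS/LPS against LPS. The part of these cells in the H2-Ab1 level was not tested.

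**Figure D4:**
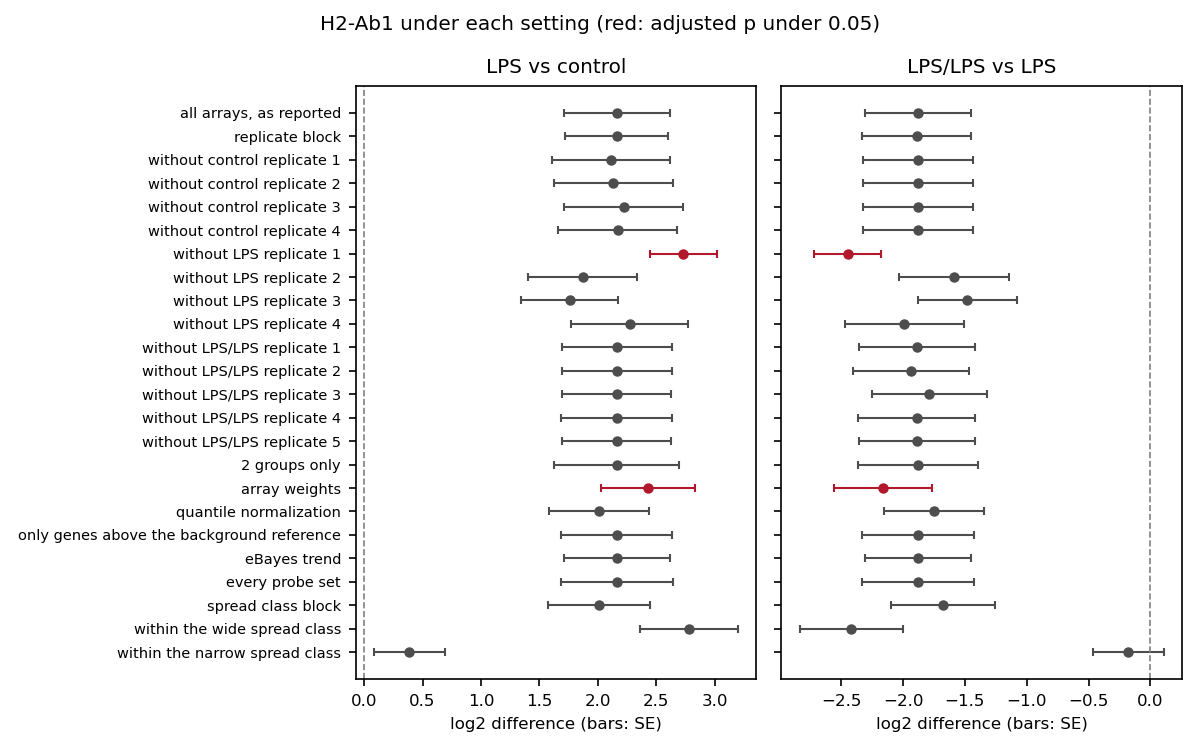
Log2 difference of H2-Ab1 (horizontal axis, bars are limma's SE) under each alternative setting (rows), with LPS vs control on the left and LPS/LPS vs LPS on the right. Red points have an adjusted p under 0.05: they occur without LPS replicate 1 and with array weights, and the values nearest to 0 are those within the narrow arrays.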

How the data were processed

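RNA of S1 segments was profiled on 13 Affymetrix whole-transcript arrays. Per the labels' protocols, PicoPure RNA was precipitated with isopropanol and 2 ng per sample was labelled with the WT Pico kit. The authors deposited log2 values per probe set (41345, from 0.376 to 13.8), and the submitters' processing notes name RMA and Partek 6.6. For the background step, the normalization between arrays, the annotation and the build, the sources used here give nothing. RMA leaves some background in dim probe sets, which shrinks their differences. Arrays have no read depth, and their number limits the precision.

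In the platform annotation 23521 probe sets had 1 symbol, 1814 several and 16010 none. The first kind was used, with the brightest probe set for the 1082 genes that had more than 1. All 13 arrays entered 1 limma fit (3.58.1, R 4.3.3) without covariates, with Benjamini-Hochberg adjustment over 22180 genes and a threshold of 0.05. The fit was tested on simulated data. Correlations used 100000 permutations. The design planned 21 pairs of members, and with Cd74 unused 15 remained.

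The members and lists were chosen with earlier results of these data known. All 6 measured members are named, and of each list the called genes or else the gene with the lowest p per comparison. Other genes were named after their values were seen. Of the listed genes, Cd74, H2-Ea-ps, H2-D1 and Clec9a had no probe set used under their own symbol alone and were not analysed here, and some further listed genes are not reported here. Alternatives were a replicate block, leaving out each array, 2-group fits, array weights, quantile normalization, a filter on dim genes, a variance trend, every probe set, and the spread class as a block or split.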

Additional observations from a re-analysis of the deposited data

How the results depend on the processing

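Of 405 member values recomputed under 23 alternatives, 368 kept their direction and their side of the threshold, 4 passed it (H2-Ab1, given above) and 33 turned sign, none of them of a called difference; their reported sizes were at most 0.155, except -0.327 for H2-Aa in LPS/LPS vs LPS. Over all genes, 0 were called in LPS vs control, 2 in LPS/LPS vs control, and 14 in LPS/LPS vs LPS. In that order, leaving out single arrays gave 0 to 24, 0 to 3 and 5 to 96 calls, and 0 to 1, 0 and 0 to 1 member calls. The highest counts, 24 and 96, came without LPS replicate 1. The replicate block gave 3, 0 and 4. Same-numbered arrays did not deviate together (correlations from -0.351 to 0.215), so the numbers were not taken as pairs. Fits of 2 groups gave 0, 0 and 2, array weights 30, 3 and 41 with 1, 0 and 1 members, quantile normalization 7, 4 and 15, genes above background 3, 2 and 16, every probe set 0, 0 and 7, the spread class block 0, 4 and 20, wide arrays 0, 0 and 0, and narrow arrays 1, 0 and 3. The cause was not tested.

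Signs turned as follows. In LPS/LPS vs control, H2-DMb1 was -0.053 with the replicate block, -0.046 with array weights, -0.017 on quantile normalization and -0.10 within narrow arrays. H2-Eb1 was -0.035 on quantile normalization, -0.026 with the class block and -0.20 within narrow arrays, and Ciita -0.016 within narrow arrays. In LPS vs control, Ciita was -0.025 on quantile normalization, -0.0043 with the class block and -0.18 within narrow arrays, H2-DMa -0.041 within wide arrays and H2-Aa -0.34 within narrow arrays. In LPS/LPS vs LPS, Ciita was -0.034 with array weights, H2-DMa 0.091 with the class block and 0.28 within wide arrays, and H2-Aa 0.0031 within narrow arrays. Leaving out single arrays gave -0.11 to 0.15 for H2-Eb1, -0.17 to 0.15 for H2-DMb1 and -0.00028 to 0.23 for H2-DMa in LPS/LPS vs control. It gave -0.14 to 0.14 for Ciita in LPS vs control, and -0.014 to 0.27 for Ciita and -0.10 to 0.099 for H2-DMa in LPS/LPS vs LPS. No member had a further probe set of its own symbol, so that alternative gave no value. Levels close to background limit what the dimmer members can show.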
